A study of Mus musculus with 24 samples.

Results

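The complement genes described here are 9 rows of a gene expression table from mouse bone marrow-derived macrophages: C1qa, C1qb and C1qc, C3, Cfb, Cfp, Serping1, C3ar1 and C5ar1. They were chosen by name, with earlier results of the same libraries known, so their values are given as a description and no p-value is attached to a single member. The rule had no threshold. All 9 were found among the 13568 genes listed, and all 9 were among the 11710 genes that reached 1 CPM, a read count scaled to the size of its library, in at least 6 libraries. Cfb and Serping1 reached that level almost only through stimulated libraries, so a difference between stimulated and unstimulated cells was built into their inclusion.

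Complement is a set of plasma and tissue proteins that marks targets for uptake, recruits leukocytes and can lyse membranes. C1q, assembled from A, B and C chains, starts the classical pathway; all pathways meet at C3, which is cleaved into an opsonin and the small peptide C3a. Most complement proteins come from the liver, but macrophages are a main source of C1q and also make C3, factor B and properdin in tissues.

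The diabetic group comprised 6 male C57Bl/6 mice in which diabetes had been induced by streptozotocin (STZ), a toxin of insulin-producing cells; 6 untreated wild-type males of the strain served as controls. The labels used here give no age. Cells of both phenotypes were differentiated for 7 days with 20% L929-conditioned medium and 10% serum in 5 mmol/L glucose, so the cells of both phenotypes had been in the same glucose for that time. The cells of each animal were divided: a portion was left unstimulated, and the other received 100 ng/mL lipopolysaccharide (LPS) with 10 ng/mL interferon-gamma for 6 hours. This gave 4 groups of 6 polyadenylated RNA libraries with 16754771 to 34130060 recovered reads each. Values are CPM as mean ± SD of 6 libraries, and differences are differences of mean log2(CPM + 1) ± SE from limma fitted across all 11710 genes.

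The 8 macrophage markers checked were all present, with a summed level of 16670 to 18090 CPM (control) and 16470 to 19710 CPM (diabetic) in unstimulated libraries and of 14990 to 18130 CPM and 14230 to 16310 CPM after stimulation. Not all of them were level: by limma 4 of the 8 were lower and 1 higher in unstimulated diabetic cells, and 3 lower and 1 higher after stimulation, as for Adgre1 (2231 ± 117 and 1734 ± 37 CPM unstimulated) and Fcgr1 (299 ± 66 and 130 ± 7.2 CPM). Of all genes tested, 10.2% were lower and 9.16% higher in unstimulated diabetic cells, and 21.9% lower and 29.8% higher after stimulation. The same shares stand beside the marker counts that follow, and nothing is read from these counts. Summed markers of some other cells were higher in the diabetic libraries, though in the B-lineage and osteoclast sums not every marker was called higher. The 2 neutrophil markers that could be used, of 9 listed, summed to 14.3 to 23.3 CPM in unstimulated control and 34.1 to 43.7 CPM in unstimulated diabetic libraries, with stimulated sums of 28.8 to 34.9 and 38.9 to 50.9 CPM. By limma 2 of these 2 were higher in unstimulated diabetic cells and 1 after stimulation, and 0 were lower. For the 2 usable of 5 B-lineage markers the unstimulated sums were 7.57 to 20.7 and 24.3 to 58.3 CPM and the stimulated sums 1.29 to 2.30 and 2.95 to 5.26 CPM. By limma 1 of these 2 was higher and 1 lower in unstimulated diabetic cells, and 1 was higher after stimulation. For the 5 osteoclast markers the sums were 75.8 to 243 and 203 to 311 CPM, then 46.8 to 111 and 94.7 to 129 CPM. Of these 5, limma placed 1 higher in unstimulated and 3 higher in stimulated diabetic cells, and 0 lower. Fibroblast, dendritic and mast cell markers (3 of 8, 2 of 6 and 1 of 4 usable) summed to at most 22.7 CPM in any library, and none of 4 erythroid markers could be used. The part of any of these markers in the results on complement genes was not tested. In whole cultures, fewer expressing cells and less RNA per cell cannot be told apart. The control libraries numbered 3 stood apart in several complement genes, and values without them are given where they matter.

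In unstimulated macrophages, 8 of the 9 genes were lower in cells from diabetic mice, with no overlap between the 6 diabetic and the 6 control libraries; Serping1 was near 0 in both. Among all genes tested, 7.32% were lower and 5.27% higher without overlap. In the limma fit the same count, 8 lower and 0 higher, lay under an adjusted p of 0.05, against 10.2% of all genes lower and 9.16% higher, and the median difference was -0.65 for the 9 genes and -0.01 for all genes. After stimulation the picture split: 4 genes were lower without overlap (C1qa, C1qb, C1qc and C3ar1), 1 was higher without overlap (C5ar1), and 4 overlapped. The corresponding shares of all genes were 11.4% and 12%. By the limma fit, 5 of the 9 were lower and 2 higher after stimulation, against 21.9% and 29.8% of all genes; of all genes that passed there, 57.7% were higher with the deposited scaling, 44.2% with median-of-ratios factors and 77.4% with total reads. Since the members were picked with these contrasts in view, nothing further is read from these counts.

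**Figure D1:**
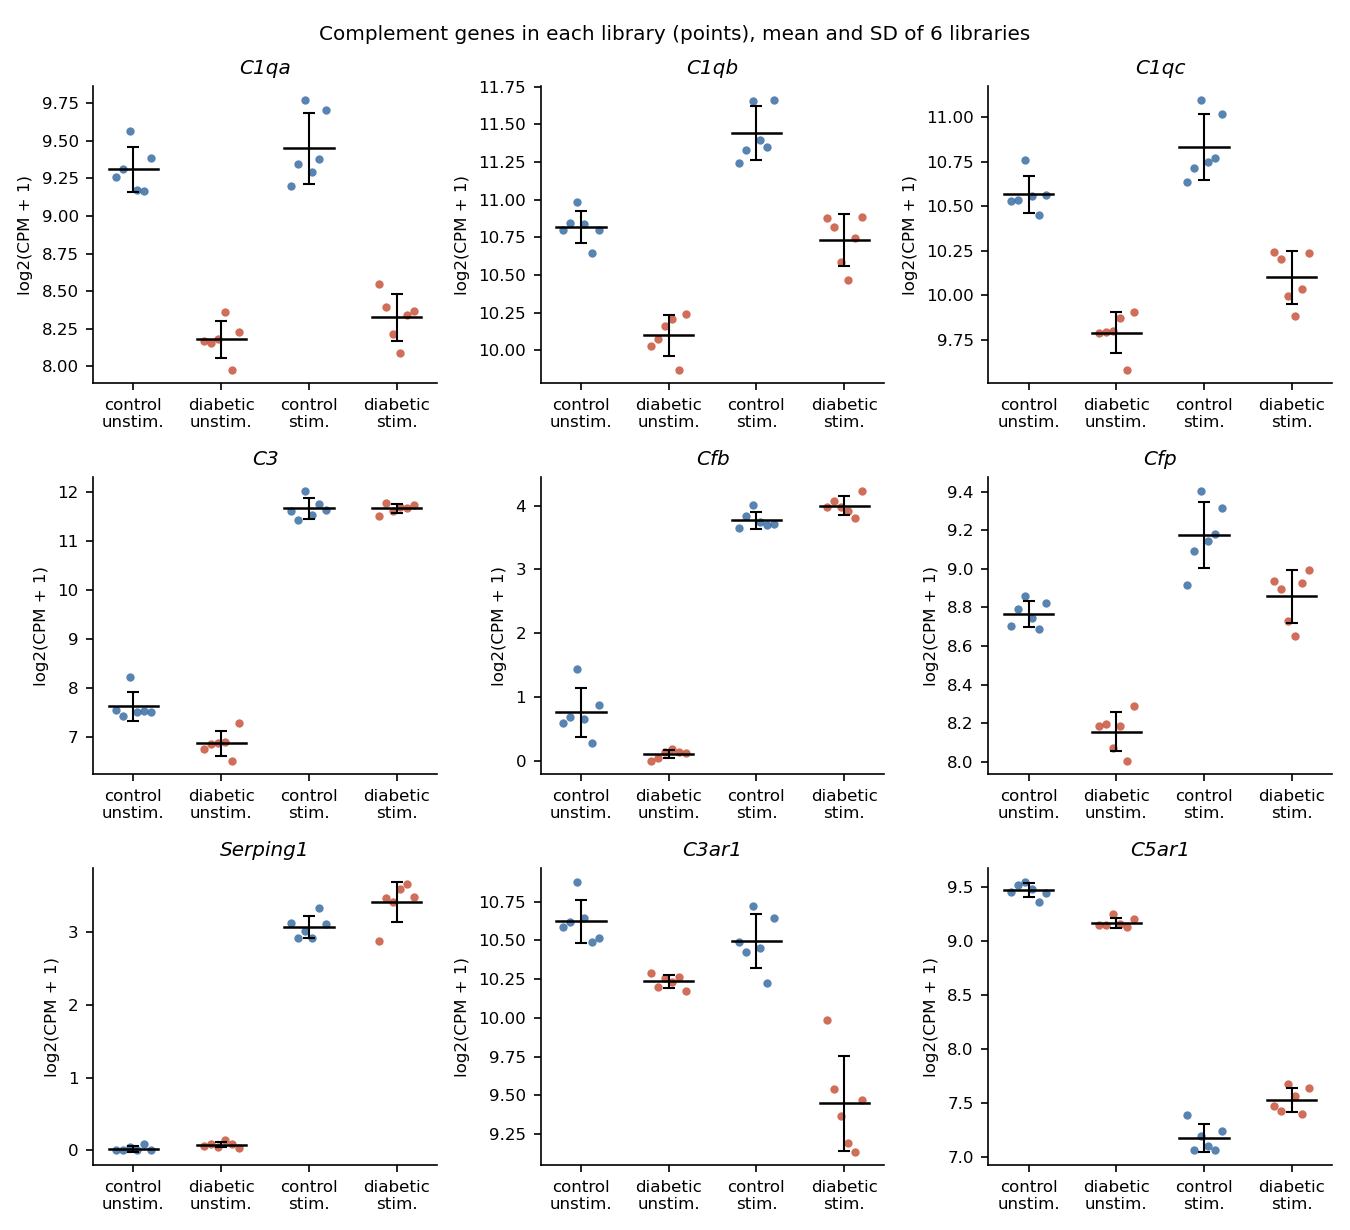
Level of each of the 9 complement genes, as log2(CPM + 1), in the 4 groups; each point is a library (blue control, red diabetic), and bars show the mean and SD of 6, with a separate vertical scale for each gene. The C1q chains sit lower in diabetic cells in both states, C3, Cfb and Serping1 sit several log2 units higher after stimulation, and C5ar1 changes its order between phenotypes.

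C1qa, C1qb and C1qc encode the A, B and C chains of C1q. They lie next to each other on the minus strand of chromosome 4 (GRCm38), at chr4:136895917-136898803 for C1qa, chr4:136889804-136893065 for C1qc and chr4:136880129-136886187 for C1qb, within 18675 bases. Of these, C1qa differed most between phenotypes. Unstimulated control libraries ranged from 573 to 758 CPM (median 624) and diabetic libraries from 251 to 328 CPM (median 288). After stimulation the control range was 588 to 875 CPM (median 657) and the diabetic range 271 to 372 CPM (median 326). Every diabetic library lay below every control library in both states, at 2.20-fold less on the mean in either. The log2 difference was -1.13 ± 0.09 in unstimulated and -1.12 ± 0.09 in stimulated cells.

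C1qb, the most abundant chain transcript, ranged from 1600 to 2022 CPM (median 1808) in unstimulated control cells and from 937 to 1210 CPM (median 1113) in unstimulated diabetic cells. With stimulation it ranged from 2421 to 3244 CPM (median 2651) in control and from 1413 to 1893 CPM (median 1761) in diabetic cells. Its diabetic level was thus lower without overlap in each state, by -0.72 ± 0.08 and -0.71 ± 0.08 on the log2 scale. C1qc followed the same course: 1398 to 1733 CPM (median 1494) against 767 to 961 CPM (median 889) without stimulation, and 1591 to 2190 CPM (median 1731) against 946 to 1211 CPM (median 1116) with it. The C1qc differences were -0.77 ± 0.07 and -0.73 ± 0.07. With the deposited scaling, the phenotype difference of all 3 chains kept nearly the same size in both states. The response to stimulation in diabetic minus that in control cells was 0.01 for C1qa (interval of 2 SE from -0.25 to 0.27), 0.01 for C1qb (-0.22 to 0.24) and 0.04 for C1qc (-0.17 to 0.26). After quantile normalization this difference of responses was 0.29, 0.14 and 0.13, with the C1qa phenotype difference at -1.16 unstimulated and -0.87 stimulated. Within both sets of 12 columns into which the deposited table is divided, the unstimulated C1qa difference was -1.11 and -1.16. The stimulated differences in these sets were -1.01 and -1.24 for C1qa, -0.60 and -0.82 for C1qb, and -0.60 and -0.86 for C1qc.

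How C1q responded to LPS with interferon-gamma depended on the scaling of the libraries. With the deposited scaling, the response was 0.62 ± 0.08 in control and 0.63 ± 0.08 in diabetic cells for C1qb, 0.27 ± 0.07 and 0.31 ± 0.07 for C1qc, and 0.14 ± 0.09 and 0.15 ± 0.09 for C1qa. Scaled to total reads, the C1qb response was -0.09 in control cells, C1qc was at -0.45 and C1qa at -0.57; quantile normalization gave -0.68, -0.97 and -1.01. The median of all genes moved as well, from -0.30 in control cells with the deposited scaling to -0.92 with total reads and 0.02 with median-of-ratios factors. Set against that median, C1qa in control cells was 0.44 above it with the deposited scaling, 0.46 with median-of-ratios factors and 0.35 with total reads, and 0.90 below it after quantile normalization. No direction of response is therefore given for the C1q genes.

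The proportions of the chain transcripts within a library do not depend on the scaling factor of the library. Per kilobase of the longest annotated transcript, C1qa stood at 0.368 ± 0.023 of C1qb in unstimulated control cells and at 0.276 ± 0.013 in unstimulated diabetic cells. After stimulation the ratio was 0.263 ± 0.014 in control and 0.197 ± 0.0084 in diabetic cells. Libraries of the phenotypes did not overlap in either state: the lowest unstimulated control ratio was 0.330 and the highest diabetic one 0.290, and after stimulation 0.243 and 0.207. C1qa over C1qb was also lower after stimulation in each phenotype, without overlap between states. C1qc over C1qb likewise differed with stimulation, from 0.759 ± 0.022 to 0.593 ± 0.014 in control cells and from 0.731 ± 0.022 to 0.585 ± 0.019 in diabetic cells, without overlap between states. In that ratio, by contrast, the phenotypes overlapped within each state. C1qa was thus lower relative to both other chains in diabetic cells, with C1qa over C1qc at 0.485 ± 0.024 and 0.377 ± 0.015 without stimulation and 0.444 ± 0.018 and 0.337 ± 0.016 with it.

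**Figure D2:**
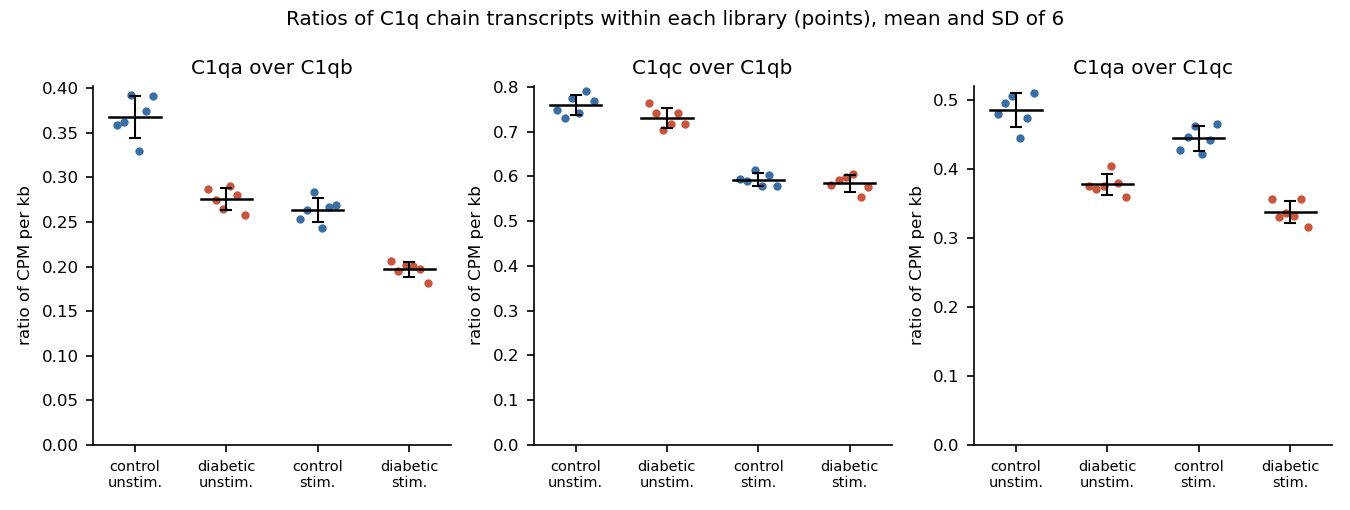
Ratios of C1q chain transcripts, in CPM per kilobase, within each library (points; blue control, red diabetic) with the mean and SD of 6 libraries per group; axes start at 0. C1qa over C1qb and C1qa over C1qc are lower in diabetic cells in both states, and C1qc over C1qb is near 0.75 before and near 0.59 after stimulation in both phenotypes.

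Promoter sequence from RefSeq (GRCm38.p6) was matched for 6 of the 9 genes, C1qb, C1qc, C3, Cfp, C3ar1 and C5ar1, and the 250 bases before the annotated start were searched on both strands for 5 short motifs. These were GAGGAA, the core bound by the macrophage factor PU.1, present in 23.25% of the 32851 promoters of that length; the interferon-stimulated response element, GAAA and GAAA parted by 2 bases (2.98%); TTCNNNGAA, a gamma-activated site (7.02%); an NF-kB site, GGGA and TT and CC each parted by 1 base (0.98%); and TTGCNNAA, a C/EBP site (9.56%). GAGGAA was found in C1qb and C1qc and TTGCNNAA in C3, and the other motifs in none of the 6 windows. A match is only a match of letters. The upstream sequence of C1qb is shown because it represents the chain genes that were lower in diabetic cells in both states; it lies at chr4:136886201-136886450 on the minus strand, the capitals mark GAGGAA, whose first base is 30 bases before the start, and the sequence is written 5′ to 3′.
C1qb: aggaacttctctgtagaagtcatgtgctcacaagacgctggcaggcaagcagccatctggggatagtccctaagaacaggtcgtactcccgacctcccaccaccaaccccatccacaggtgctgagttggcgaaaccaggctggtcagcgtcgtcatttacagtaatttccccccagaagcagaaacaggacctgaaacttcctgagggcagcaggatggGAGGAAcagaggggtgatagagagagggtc

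C3, the central component, had the largest response of the 9 genes on the log2(CPM + 1) scale with the deposited scaling; with quantile normalization Cfb (3.37) and Serping1 (3.402) exceeded it (2.93) in control cells, as both did on the deposited log2 values. It lies at chr17:57203970-57228136 on the minus strand. Unstimulated control libraries held 172 to 299 CPM (median 182) and unstimulated diabetic libraries 90.7 to 155 CPM (median 116), with no overlap. After stimulation the control libraries held 2738 to 4159 CPM (median 3124) and the diabetic libraries 2888 to 3478 CPM (median 3269), and the groups overlapped. The unstimulated difference was -0.75 ± 0.13 and the stimulated one 0.00 ± 0.13. The control library numbered 3 was the highest in both states, at 299 and 4159 CPM, whereas the other 5 unstimulated control libraries lay between 172 and 185 CPM; without both control libraries numbered 3 the unstimulated difference was -0.63. Within the 2 sets of columns it was -0.51 and -1.0. The rise with stimulation was 16.3-fold on the mean in control cells (4.03 ± 0.13 on the log2 scale) and 27.6-fold in diabetic cells (4.79 ± 0.13), a difference of responses of 0.76 ± 0.18.

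The upstream sequence of C3 is shown because C3 is the component at which all pathways meet and rose in both phenotypes under each scaling; it lies at chr17:57228137-57228386 on the minus strand, is written 5′ to 3′, and its capitals mark the TTGCNNAA match, whose first base is 45 bases before the start.
C3: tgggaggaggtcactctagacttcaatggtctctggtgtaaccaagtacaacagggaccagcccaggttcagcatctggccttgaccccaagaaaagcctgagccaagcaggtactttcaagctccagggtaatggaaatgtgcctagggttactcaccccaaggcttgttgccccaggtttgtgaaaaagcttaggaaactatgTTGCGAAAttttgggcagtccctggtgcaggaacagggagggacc

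Cfb encodes factor B, the serine protease of the alternative pathway C3 convertase. It lies at chr17:34856374-34862518 on the minus strand and is overlapped on the same strand by a longer readthrough annotation, so part of its reads may have been left uncounted and its level is uncertain. Before stimulation Cfb was close to the detection limit, for which 3 reads correspond to 0.0835 to 0.1753 CPM depending on the library. Unstimulated control libraries held 7 to 54 reads each (0.214 to 1.71 CPM, median 0.589), and unstimulated diabetic libraries 0 to 4 reads (0 to 0.140 CPM, median 0.0892). The groups did not overlap, with a log2(CPM + 1) difference of -0.65 ± 0.12, or -0.51 without both control libraries numbered 3, of which the unstimulated one held the 54 reads. At such low counts the size of this difference follows the pseudocount, and it ranged from -3.30 to -0.17 over all settings. After stimulation the control libraries held 11.5 to 15.2 CPM (median 12.2) and the diabetic libraries 12.96 to 17.9 CPM (median 14.8); these groups overlapped, with a difference of 0.22 ± 0.12. The response was 3.02 ± 0.12 in control and 3.90 ± 0.12 in diabetic cells on the log2(CPM + 1) scale, which understates changes from so low a level, and no linear fold is given.

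Cfp encodes properdin, which stabilizes the same convertase, and lies at chrX:20925454-20931555 on the minus strand. It ranged from 412 to 463 CPM (median 435) in unstimulated control and from 256 to 312 CPM (median 290) in unstimulated diabetic cells, without overlap. The stimulated ranges were 481 to 677 CPM (median 572) and 401 to 510 CPM (median 481), which overlapped. Its difference accordingly went from -0.61 ± 0.07 to -0.32 ± 0.07. The response with the deposited scaling was 0.41 ± 0.07 in control and 0.70 ± 0.07 in diabetic cells, but -0.30 and 0.07 when libraries were scaled to total reads and -0.72 and -0.24 after quantile normalization.

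Serping1 encodes C1 inhibitor, the serpin that inactivates the C1r and C1s proteases, and lies at chr2:84765387-84775444 on the minus strand. It was at or below the detection limit before stimulation: the 6 control libraries together held 3 reads and the 6 diabetic libraries 10. After stimulation it was found in every library, at 6.55 to 9.03 CPM (median 7.32) in control and 6.32 to 11.6 CPM (median 10.1) in diabetic cells. The stimulated groups overlapped only through the diabetic library numbered 1, at 6.32 CPM, since the other 5 diabetic libraries held 9.61 to 11.6 CPM. The stimulated difference was 0.35 ± 0.09.

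**Figure D3:**
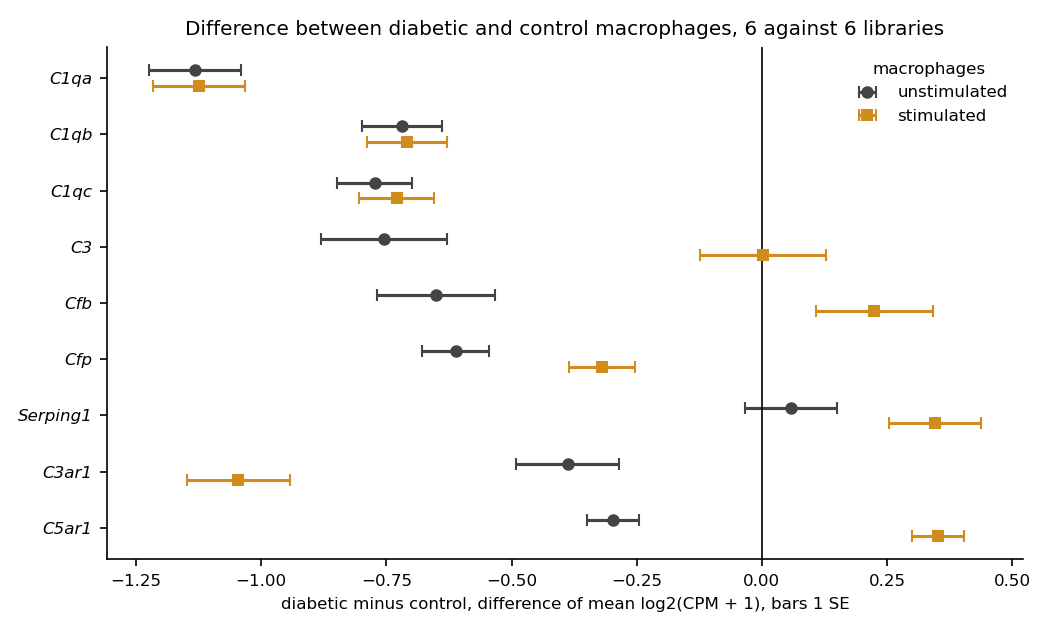
Difference of mean log2(CPM + 1), diabetic minus control, for each of the 9 genes in unstimulated (circles) and stimulated (squares) macrophages, 6 against 6 libraries; bars are 1 SE. With the deposited scaling shown, the C1q chains keep their difference and C3 and Cfb go from about -0.7 to near 0 or above it. The receptors C3ar1 and C5ar1 move in opposite directions between states.

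The receptors for the peptides C3a and C5a behaved differently from each other. C3ar1, the C3a receptor (chr6:122847138-122856161, minus strand), ranged from 1439 to 1884 CPM (median 1556) in unstimulated control and from 1156 to 1252 CPM (median 1210) in unstimulated diabetic cells. With stimulation it stayed at 1198 to 1690 CPM (median 1418) in control cells, while diabetic libraries held 562 to 1013 CPM (median 683). No diabetic library reached the control range in either state; the diabetic library numbered 1 was the highest of its stimulated group, at 1013 CPM, and the other 5 lay between 562 and 744 CPM. The difference was -0.39 ± 0.10 before and -1.05 ± 0.10 after stimulation. Its response was -0.13 ± 0.10 in control cells, of either sign depending on the scaling, and -0.79 ± 0.10 in diabetic cells, where it was lower under all 4 scalings (-1.92 to -0.51).

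C5ar1, the receptor for the chemoattractant C5a (chr7:16246743-16259540, minus strand), had the opposite order of phenotypes in the 2 states. Unstimulated control libraries held 657 to 747 CPM (median 705) and diabetic libraries 557 to 606 CPM (median 565). Stimulated control libraries held 133 to 166 CPM (median 140) and diabetic libraries 168 to 203 CPM (median 182). The groups did not overlap in either state, though the highest stimulated control library, at 166 CPM, lay next to the lowest diabetic one. The difference was -0.30 ± 0.05 without stimulation and 0.35 ± 0.05 with it. C5ar1 was 4.91-fold lower after stimulation in control and 3.12-fold lower in diabetic cells, at -2.29 ± 0.05 and -1.64 ± 0.05 on the log2 scale, and was lower under all 4 scalings. Within a library, C3ar1 stood at 1.32 ± 0.09 times C5ar1 per kilobase in unstimulated control, 1.24 ± 0.06 in unstimulated diabetic, 5.96 ± 0.65 in stimulated control and 2.30 ± 0.59 in stimulated diabetic cells. The stimulated ratios did not overlap, with 5.10 as the lowest control and 3.39 as the highest diabetic value. The size of the ratio rests on the longest transcripts, with 2540 bases for C5ar1. With the shortest coding transcript of C5ar1, 674 bases, C3ar1 would stand below C5ar1 in unstimulated cells of both phenotypes and in stimulated diabetic cells. The order of the groups does not depend on the length.

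Over the 9 genes, the limma fit placed 6 above and 1 below the threshold in the response of control cells, against 34.9% of all genes higher and 56.4% lower. In diabetic cells it placed 6 above and 2 below, against 35.2% and 55.1%. These counts hold only for the deposited scaling, since C1q and Cfp change sign with others: with total reads they were 3 above and 5 below in control and 3 and 4 in diabetic cells, and with quantile normalization 3 and 6 in both. For the difference between the responses it placed 4 higher and 1 lower in diabetic cells, against 19.6% and 12.4% of all genes (61.3% of those that passed were higher, against 46.3% with median-of-ratios factors and 75.8% with total reads). The shares of all genes also move with the scaling: of the genes that passed in control cells, 38.2% were higher with the deposited scaling, 50.6% with median-of-ratios factors and 20.0% with total reads.

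Levels per kilobase of the longest transcript give the order of the genes. C1qb was the highest in all 4 groups, at 1663 ± 124 CPM per kilobase in unstimulated control cells, followed there by C1qc at 1262 ± 94 and C1qa at 613 ± 66. C3ar1 came next at 368 ± 37; C5ar1 at 278 ± 13 and Cfp at 266 ± 12 overlapped and cannot be ordered. C3 stood at 38.9 ± 9.5, Cfb at 0.269 ± 0.187 and Serping1 at 0.00876 ± 0.0146. With the shortest coding transcript as the length, C5ar1 would stand at 1048 and C3 at 634.8 CPM per kilobase there, so their places rest on the transcript used. In unstimulated diabetic cells C1qa, at 279 ± 24 CPM per kilobase, overlapped with C3ar1 at 280 ± 8.2. After stimulation C3, at 634 ± 97 in control and 631 ± 42 in diabetic cells, overlapped with C1qa in control cells (679 ± 114) and stood above C1qa in diabetic cells (309 ± 34) without overlap. Cfp overlapped with C3ar1 in stimulated control cells (355 ± 42 and 337 ± 40) and with C1qa in stimulated diabetic cells (284 ± 26 and 309 ± 34). Cfb and Serping1 were the lowest, at 4.63 ± 0.49 and 4.19 ± 0.53 in stimulated control and 5.47 ± 0.61 and 5.53 ± 1.04 in stimulated diabetic cells, and overlapped.

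The other complement genes were listed by function, with results of these data known: 54 names, of which 23 could be used and 16 reached the minimum level. Genes are named because they passed in these data, so their adjusted p-values mark calls and are not independent tests. In unstimulated cells 3 of the 16 rose and 4 fell in diabetic cells by limma with Benjamini-Hochberg adjustment, against 9.16% and 10.2% of all genes, and the median difference was -0.07 (-0.01 for all genes). Fcna, a ficolin that recognizes microbial sugars, rose from 9.92 ± 1.196 to 12.8 ± 0.87 CPM (0.35 ± 0.07, adjusted p = 0.000635), and Itgb2, the shared beta chain of complement receptors 3 and 4, rose from 1112 ± 74 to 1290 ± 103 CPM (0.21 ± 0.05, adjusted p = 0.00216). Itgax, the alpha chain of complement receptor 4, was at 146 ± 55 and 252 ± 57 CPM (0.89 ± 0.31, adjusted p = 0.0487). That call was not stable: it was lost in 27 of 40 settings, among them without the unstimulated control library numbered 3, at 46.7 CPM (difference 0.59), although it held when the stimulated library of that number was left out too. C1ra, a C1r protease whose reads may be shared with a near-identical copy, fell from 3.68 ± 0.68 to 2.53 ± 0.48 CPM (-0.40 ± 0.09, adjusted p = 0.00259). Cd93, once described as a C1q receptor, fell from 807 ± 61 to 664 ± 36 CPM (-0.28 ± 0.09, adjusted p = 0.0207). The second C5a receptor, C5ar2, fell from 21.03 ± 2.4 to 16.8 ± 2.3 CPM (-0.31 ± 0.10, adjusted p = 0.0209), and C4b, also with a near-identical copy, from 1.05 ± 0.69 to 0.404 ± 0.076 CPM (-0.49 ± 0.16, adjusted p = 0.0306; -1.14 to -0.16 over the settings, which included other pseudocounts). These last 3 calls were lost when the unstimulated control library numbered 3 was left out, with differences of -0.24, -0.27 and -0.35; that of Cd93 held when the stimulated library of that number was left out too.

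After stimulation 5 of the 16 were higher and 4 lower in diabetic cells, with a median of 0.10 (0.03 for all genes); with 29.8% of all genes higher and 21.9% lower, these counts are near the background. They moved with the scaling, to 4 and 4 with median-of-ratios factors, 7 and 3 with total reads and 5 and 3 with quantile normalization. For C1s1, the C1s protease gene, control libraries held 3.07 to 5.54 CPM and diabetic libraries 6.28 to 12.9 CPM; no library overlapped, and the difference was 1.23 ± 0.12 (limma, adjusted p = 4.15e-09). An antisense gene overlaps C1s1, and a near-identical copy exists, so its level is uncertain. Fcna (0.24 ± 0.07, adjusted p = 0.00573 by limma), C1qbp, a mitochondrial protein also described as binding C1q (0.23 ± 0.07, adjusted p = 0.00786), and Itgax (0.89 ± 0.31, adjusted p = 0.0197) also rose, as did Itgb2 (0.13 ± 0.05, adjusted p = 0.0326). The Itgax call was lost without the stimulated control library numbered 3, with a difference of 0.65, and held without both libraries of that number. Cd93 fell from 360 ± 51 to 229 ± 35 CPM (-0.65 ± 0.09, adjusted p = 8.66e-07). Cd59a, an inhibitor of the membrane attack complex, fell from 5.05 ± 0.57 to 3.20 ± 0.75 CPM (-0.54 ± 0.10, adjusted p = 3.3e-05), and Calr, calreticulin (-0.25 ± 0.05, adjusted p = 0.000193), and Cr1l, which encodes the regulator Crry (-0.17 ± 0.04, adjusted p = 0.000729), fell by less.

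In response to stimulation 6 of the 16 rose and 7 fell in control cells, and 6 rose and 8 fell in diabetic cells, near the background of 34.9% higher and 56.4% lower in control and 35.2% and 55.1% in diabetic cells. With total reads 3 rose in each, and 12 and 13 fell. C1ra rose from 3.68 ± 0.68 to 41.35 ± 4.2 CPM in control cells, and from 2.53 ± 0.48 to 43.2 ± 4.3 CPM in diabetic cells (3.19 ± 0.09 and 3.65 ± 0.09, limma adjusted p = 1.33e-22 and 5.39e-24). C1s1, at 12 and 9 reads over the 6 unstimulated libraries of each phenotype, and C4b would not have reached the minimum level without their stimulated libraries, so a response was built into their inclusion and no p is given for it; their differences were 2.15 ± 0.12 and 3.41 ± 0.12 for C1s1 and 1.80 ± 0.16 and 2.46 ± 0.16 for C4b. C5ar2 fell (-2.98 and -2.71, SE 0.10 each, limma adjusted p = 2.59e-22 and 3.07e-21), as did Lrp1, the receptor that takes up many protease complexes, (-2.03 and -1.82, SE 0.09 each, limma adjusted p = 2.54e-17 and 3.13e-16), Cd93 (-1.17 and -1.54, SE 0.09 each, limma adjusted p = 1.02e-12 and 2.8e-15) and C1qbp (-1.34 and -1.08, SE 0.07 each, limma adjusted p = 1.37e-16 and 2.45e-14). Cr1l rose by 0.66 ± 0.04 and 0.49 ± 0.04 (limma adjusted p = 9.2e-16 and 1.3e-12), but was at -0.04 and -0.13 with libraries scaled to total reads. By the interaction term of limma the response differed between phenotypes for 6 of the 16, with 3 more positive and 3 more negative in diabetic cells. This is near the background of 19.6% and 12.4% of all genes. It was more positive for C1ra (0.47 ± 0.13, adjusted p = 0.00867), C1s1 (1.26 ± 0.17) and C4b (0.66 ± 0.22). No p is given for C1s1 and C4b, whose inclusion rested on stimulated libraries. With so few unstimulated reads, the C1s1 value is close to its stimulated phenotype difference of 1.23. The response was more negative for Cr1l (-0.17 ± 0.06, adjusted p = 0.0171), Cd93 (-0.38 ± 0.12, adjusted p = 0.019) and Cd59a (-0.35 ± 0.13, adjusted p = 0.0452). The Cd59a call was lost in 19 of 40 settings, with differences of -0.47 to -0.17, that of Cr1l with total reads or quantile normalization, and that of Cd93 with quantile normalization. With total reads 5 of the 16 were more positive and 1 more negative, against 3 and 3 with the deposited scaling.

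**Figure D4:**
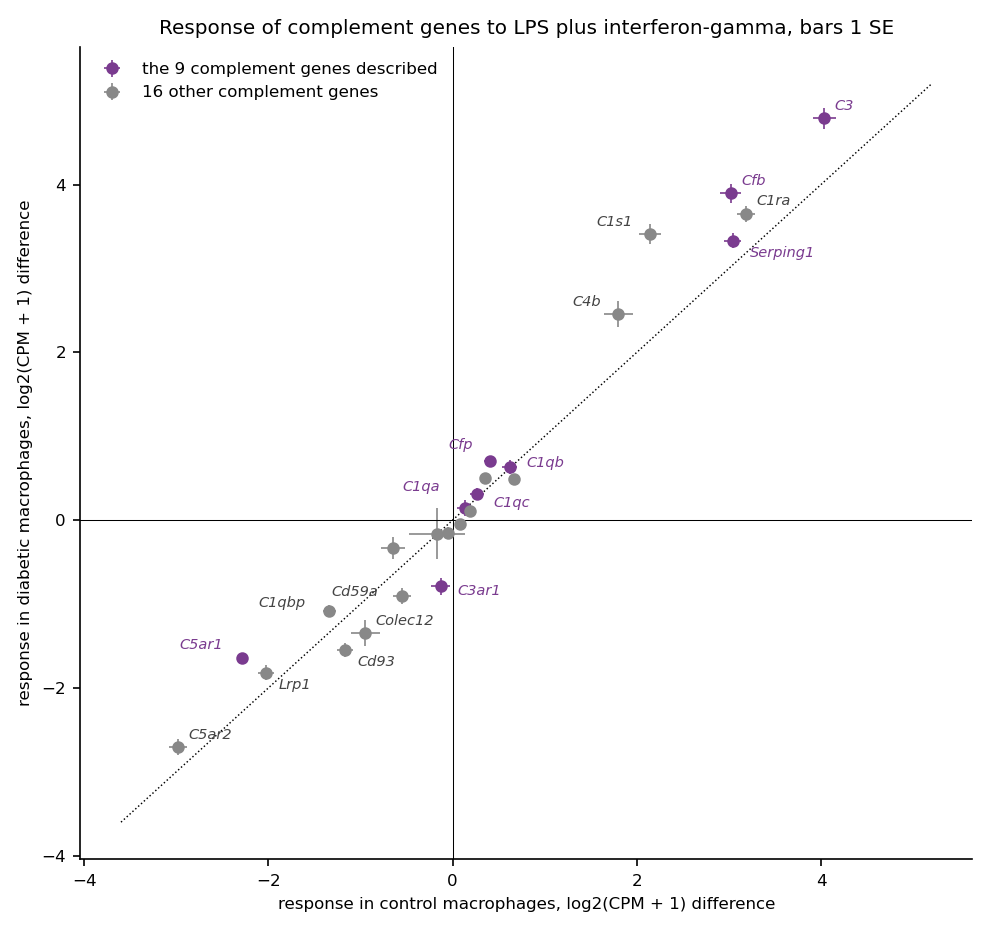
Response to LPS with interferon-gamma, as the difference of mean log2(CPM + 1) between stimulated and unstimulated libraries, in control (horizontal) and diabetic (vertical) macrophages; purple points are the 9 complement genes described and grey points the 16 others, 7 of them near the centre without a name, bars are 1 SE and the dotted line marks equal responses. C3, Cfb, C1s1 and C4b lie above the line, C5ar1 lies above it on the side of the genes that fell, and C3ar1 lies below it.

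The transcription factors described here act at complement or macrophage genes. They too were listed with results of these data known, so their adjusted p-values are not independent tests. Maf, a factor of macrophage differentiation, was lower in diabetic cells in both states (-0.36 ± 0.07 and -0.49 ± 0.07, limma adjusted p = 0.000649 and 4.16e-06), and so was Spi1, the gene of PU.1 (-0.15 ± 0.04 and -0.25 ± 0.04, limma adjusted p = 0.0132 and 4.04e-05). Irf8, an interferon-induced factor, was at -0.17 ± 0.06 without stimulation (limma adjusted p = 0.0584) and fell from 3628 ± 302 to 2100 ± 254 CPM between stimulated control and diabetic cells (-0.79 ± 0.06, limma adjusted p = 4.26e-10). Irf1 was lower in diabetic cells in both states (-0.17 ± 0.05 and -0.22 ± 0.05, limma adjusted p = 0.0225 and 0.00142), the first of these calls being lost without the unstimulated control library numbered 3 (-0.13) and the other with total reads or quantile normalization. Cebpb was higher in both (0.23 ± 0.07 and 0.29 ± 0.07, limma adjusted p = 0.0104 and 0.000513), and Cebpd passed in neither (-0.16 ± 0.08 and -0.02 ± 0.08, limma adjusted p = 0.174 and 0.852). All 6 of these factors rose with stimulation in both phenotypes by limma, with differences from 1.196 (Maf in diabetic cells) to 4.34 (Irf8 in control cells).

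The genes whose profiles over the 24 libraries were closest to each member were found by the root mean square difference of log2(CPM + 1), each gene centred on its own mean. For C1qa they were Aif1 (0.161) and Cd72 (0.203), for C1qb Lgmn (0.145) and Ifi27l2a (0.154), and for C1qc Lst1 (0.0737) and Ahsa1 (0.123). C3 was closest to Gbp9 (0.220) and Ifi203 (0.234), Cfb to Lgals9 (0.190) and Trim30a (0.1996), and Cfp to Lgmn (0.109) and Rnf25 (0.131). C3ar1 was closest to Apbb1ip (0.194) and Cd180 (0.204), C5ar1 to Rassf5 (0.137) and Tmem250-ps (0.139), and Serping1 to Hif1a (0.145) and Lztfl1 (0.149). These likenesses describe 24 libraries that fall into the same 4 groups. Serping1 in unstimulated cells and Cfb in unstimulated diabetic cells held 0 to 4 reads a library. Their profiles, and so the genes closest to them, depend on the pseudocount. As a scale for the distances, a member's own root mean square spread about its mean was 0.39 for Cfp, 0.59 for C1qa and 2.23 for C3.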

How the data were processed

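RNA was isolated with the mirVana kit and made into TruSeq Stranded mRNA libraries, per the labels' protocols, although the labels' molecule field reads genomic DNA. The submitters' processing notes name STAR 2.5.3a, edgeR 3.16.5 and R 3.3.3, without their roles, and the builds GRCm38 and mm10; which program counted reads, and whether by strand, is not stated there. The deposited table holds log2 values of CPM with 1 shared value, -6.6718, for zero; CPM were obtained by removing this floor after exponentiation, and 100% of values were whole reads within 0.01 read. Since the unit is log2, no count test was run.

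Genes at 1 CPM or more in at least 6 libraries were fitted as log2(CPM + 1) with limma 3.58.1 (trend, robust; R 4.3.3), with 4 group means, 20 residual degrees of freedom and Benjamini-Hochberg adjustment over 11710 genes; the fit was first tested on simulated data. Named other genes were, per comparison, up to 4 rising and 4 falling with the smallest adjusted p, the transcription factors of the list, some of which are not reported here, and the 2 genes most alike to each member. The members and lists were chosen with earlier results of these data known. Transcript lengths are from GENCODE (GRCm38). The lowest chi-square per degree of freedom between libraries of a group was 3.16, so none was a copy of another. The p-values measure the spread between the libraries of a group. The model had no term for the animal, so the unstimulated and stimulated libraries of an animal were treated as independent. Total reads were 16754771 to 34130060 per library, and 3 reads correspond to 0.0835 to 0.1753 CPM; this floor covers counting error only. Alternatives were other scalings, pseudocounts, filters, weights, the replicate block, each set of columns and leaving out each library; leaving out both control libraries numbered 3 was chosen after seeing the data.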

Additional observations from a re-analysis of the deposited data

Results flagged for a closer look

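Among 36 sets of 6 member values, 3 held a sample far from the other 5, where chance gives about 1 in 20 sets, or 1.8 of 36. All were the unstimulated control library numbered 3, the highest of its group: C1qc at 1733 CPM, C3 at 299 CPM and C3ar1 at 1884 CPM.

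The interaction term of the limma fit over all genes picked out 5 members and 6 other complement genes whose response to stimulation was unequal in diabetic and control cells. Of all genes, 19.6% passed with a more positive and 12.4% with a more negative response in diabetic cells. For the members this is a description, since they were chosen with these data known: the log2 differences of the responses were 0.76 for C3, 0.88 for Cfb, 0.29 for Cfp, -0.66 for C3ar1 and 0.65 for C5ar1. For the others they were 0.47 for C1ra, 1.26 for C1s1, 0.66 for C4b, -0.35 for Cd59a, -0.17 for Cr1l and -0.38 for Cd93. Cfb held 0 to 4 reads a library in unstimulated diabetic cells and C1s1 at most 5 in unstimulated cells. The size of both values therefore follows the pseudocount. The Cd59a call was lost in 19 of 40 settings.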

How the results depend on the processing

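Over the settings tried, the phenotype differences of the C1q chains, Cfp, C3ar1 and C5ar1 kept their sign in both states. Responses to stimulation depended on the scaling. With total reads the responses in control cells were -0.57 for C1qa, -0.0903 for C1qb, -0.45 for C1qc, -0.30 for Cfp and -0.0355 for Cr1l, and in diabetic cells -0.49 for C1qa, -0.0041 for C1qb, -0.33 for C1qc and -0.13 for Cr1l. With quantile normalization they were -1.01, -0.68, -0.97 and -0.72 for C1qa, C1qb, C1qc and Cfp in control cells and -0.72, -0.54, -0.84 and -0.24 in diabetic cells. Of the genes called between stimulated diabetic and control cells, 57.7% were higher with the deposited scaling, 44.2% with median-of-ratios factors and 77.4% with total reads; for the interaction the shares were 61.3%, 46.3% and 75.8%, and between unstimulated cells 47.4%, 46.8% and 60.2%. The cause was not tested.

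In the second set of columns alone, with 3 libraries a group, 5 members and 3 other complement genes passed between unstimulated cells, 4 others between stimulated cells, and 2 members and 3 others in the interaction. Leaving out 1 library at a time gave 4 to 8 other complement genes between unstimulated cells, with the 4 reached without the control library numbered 3. All genes called between unstimulated cells were 2265, 3502 with array weights, 1847 to 2395 on leaving out libraries, and 1506 and 861 within the sets of columns. For the interaction they were 3747, and 2440 and 1642 within the sets of columns. Between stimulated cells 2474 of all 11710 genes were higher and 1932 lower in the second set.

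The study's design says that the cells of each animal were divided, but not that equal numbers mark an animal. Deviations of equal-numbered libraries correlated at 0.123 on average (-0.0816 to 0.402, above 0.1 for 5 of 12 pairs), and 8 of 12 correlated best with their own number. With the replicate block, 8 members and 7 other complement genes passed between unstimulated cells and 7 and 9 between stimulated cells, as without it. In the interaction 5 and 8 passed, against 5 and 6 without it. Of all 11710 genes, 2436 passed there with a more positive and 1552 with a more negative response, against 2297 and 1450 without the block. Between unstimulated cells 1071 of all genes were higher and 1191 lower with the block, and between stimulated cells 3492 and 2568. No call printed for a named gene changed. Depth limits Serping1 in unstimulated cells and Cfb in unstimulated diabetic cells, with 0 to 4 reads a library.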
